A study of Mus musculus with 6 samples.

Results

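Notch1, Notch2, Hes1, Hes5, Sox2, Sox9, Pax6, Six3 and Nfia are Notch pathway genes and transcription factors of retinal progenitors and Müller glia, the radial glia that span the retina. These 9 genes were taken by symbol from a table of 55573 genes, and all 9 had counts in every library. The table came from cells sorted as retinal ganglion cells (RGCs, the neurons that send axons into the optic nerve) from retinas of C57BL/6 mice that carry floxed Myh9 and Myh10, the genes of the nonmuscle myosin IIA and IIB heavy chains. The libraries labelled dKO (n = 3) came from eyes injected with AAV2-Cre, a viral vector that carries Cre recombinase, and the libraries labelled WT (n = 3) from eyes injected with AAV2-GFP. Both groups have the same floxed genotype, so WT here means floxed alleles without Cre, and the vector was given into the vitreous 2 weeks before the retinas were taken. Each library pooled 3 retinas from 3 mice of unstated age. Whether replicates have mice in common is not said, so the p-values describe the spread among these pools.

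Notch receptors are activated by a ligand on the neighbouring cell. They are then cut by ADAM proteases and γ-secretase, and the freed intracellular part enters the nucleus and joins the DNA-binding protein RBPJ to switch on repressor genes of the Hes and Hey families. In the developing retina this signal keeps cells as progenitors and favours Müller glia over neurons, partly because Hes repressors hold back proneural factors. Müller glia of the adult retina keep several progenitor factors, among them Sox2, Sox9 and Pax6, and Pax6 also stays on in amacrine cells and RGCs.

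Hes5 is a standard example of a Notch target, and its promoter is shown because it was the only one of those at hand for these genes that held the core letters bound by RBPJ. The RefSeq promoter table (GRCm38.p6, 250 bases before to 50 after the start) had 8 promoters for 7 of the 9 genes and none for Hes1 and Sox9. The Hes5 promoter on chromosome 4, plus strand, chr4:154960673-154960972, is 72.7% G or C. Capitals mark the letters TGGGAA or, where the match is on the other strand, TTCCCA.
Hes5 promoter: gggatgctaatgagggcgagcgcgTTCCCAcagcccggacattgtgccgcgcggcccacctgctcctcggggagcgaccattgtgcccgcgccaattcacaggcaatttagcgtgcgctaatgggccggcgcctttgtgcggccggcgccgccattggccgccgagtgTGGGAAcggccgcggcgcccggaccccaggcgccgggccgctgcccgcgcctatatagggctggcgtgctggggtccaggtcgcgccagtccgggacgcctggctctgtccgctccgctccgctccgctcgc
The matches begin at positions -226 (TTCCCA) and -82 (TGGGAA), counted from the start of the gene. TGGGAA on either strand is present in 25.6% of 32851 promoters of this length, so a match is common and describes letters only. The N box CACNAG, a sequence that Hes repressors bind, was found on either strand in the promoters of Notch1, Notch2 and Pax6 and is present in 42.5% of all promoters.

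Before the 9 genes are described, some facts of the libraries bear on every value. Total counts were 4569880 to 5634316 in the libraries labelled dKO and 4730540 to 6146226 in those labelled WT, but a single ribosomal RNA row, CT010467.1, took 64.2% to 91.2% of them in dKO and 90.2% to 92.8% in WT. Outside that row there were 1636581 counts in dKO replicate 3 and 346037 to 576060 in the other 5 libraries. CPM below are counts relative to the library size after scaling by TMM, a method that equalises the bulk of genes between libraries, and 1 count was worth 0.0653 CPM in dKO replicate 3 and 0.192 to 0.317 CPM in the other 5. Myh9 stood at 62.7 ± 4.13 CPM in dKO and 64.2 ± 3.91 CPM in WT, and Myh10 at 18.0 ± 3.39 and 18.7 ± 2.08 CPM (SD, n = 3 each), with edgeR adjusted p of 0.908 and 0.735. Counts over the whole gene include exons outside any floxed part, so they do not check the deletion. The sorted cells were labelled RGCs, yet the RGC markers Pou4f1 and Pou4f2 had 0 to 9 counts per library, and 12 Müller glia markers together took 3.36% to 3.65% of all other counts in dKO and 3.28% to 3.40% in WT. The 8 RGC markers took 0.0245% to 0.0257% in dKO and 0.0210% to 0.0220% in WT.

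The 9 genes together held 601 to 2129 counts per library. Leaving out ribosomal RNA, that is 0.130% to 0.139% of the counts in dKO and 0.140% to 0.154% in WT. Per kilobase of annotated exon, which allows levels of different genes to be set side by side, Sox2 was at 4.79 CPM and Hes1 at 4.74 CPM on average over the 6 libraries, and these were the highest means of the 9. Notch2 (3.81 CPM per kilobase) and Notch1 (2.95) followed, then Pax6 (2.27), Hes5 (2.21) and Sox9 (1.99). Nfia (1.17) and Six3 (0.353) were the lowest. Sox2 was above Hes1 in 3 of 6 libraries and Pax6 above Hes5 in 3 of 6, so those neighbours were not ordered. Hes1 was above Notch2 in 5 of 6 and Hes5 above Sox9 in 4 of 6, with overlapping ranges. Notch2 was above Notch1 and Sox9 above Nfia in 6 of 6 libraries, although the ranges over all libraries overlapped. Only 2 steps of the order separated without overlap, the step between Notch1 and Pax6 and that between Nfia and Six3. Annotated exons that are rarely used lower such values, so small steps between genes carry little weight. The Müller glia enzyme Glul, glutamine synthetase, stood at 342 CPM per kilobase on the same scale.

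**Figure D1:**
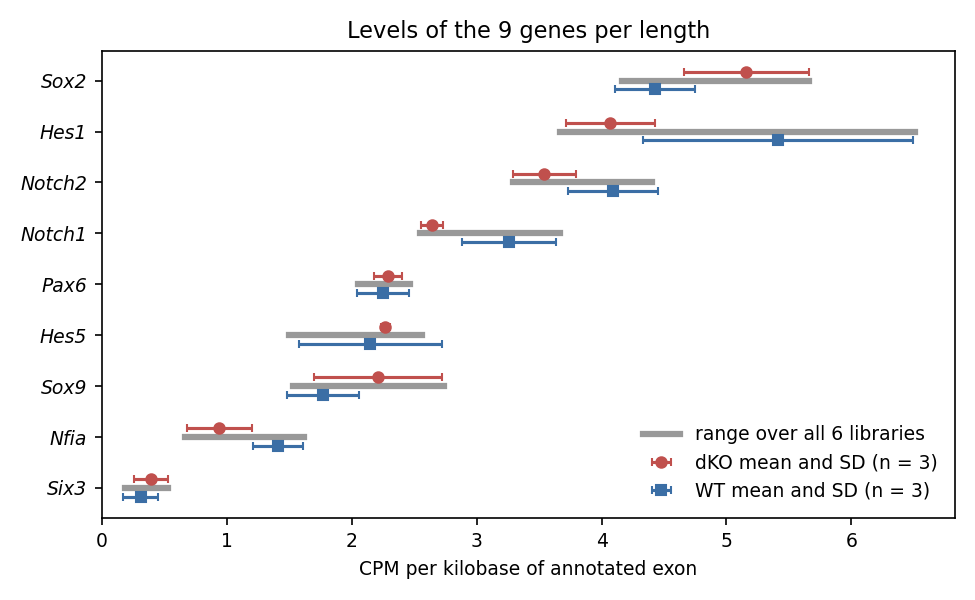
CPM per kilobase of annotated exon (x axis) for the 9 genes, ordered by their mean; red circles are dKO means and blue squares WT means with SD (n = 3 each), and grey bars span all 6 libraries. Sox2 and Hes1 lie near 4.8 CPM per kilobase and Six3 lies lowest at 0.353, clear of Nfia.

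How the genes differ between AAV2-Cre and AAV2-GFP eyes was tested in a single fit across all 8444 genes that passed the filter on low counts (edgeR quasi-likelihood test, two-sided, Benjamini-Hochberg adjusted over all of them). Of the 9 genes, 8 passed that filter and Six3 did not. Only Nfia was called, and it was lower in dKO. Over all genes tested, 1.92% were called in either direction. The 8 genes had a median log2 fold change of -0.10, against -0.00072 over all genes tested, and 4 of the 8 values were positive. The 4 negative ones, Nfia, Notch1, Hes1 and Notch2, each had an unadjusted edgeR p under 0.05. Over all genes tested, 12.5% had such a p in either direction. In Notch1 and Nfia every dKO value lay below every WT value, and 8.31% of all genes tested showed that pattern. In none of the 9 did every dKO value lie above every WT value.

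**Figure D2:**
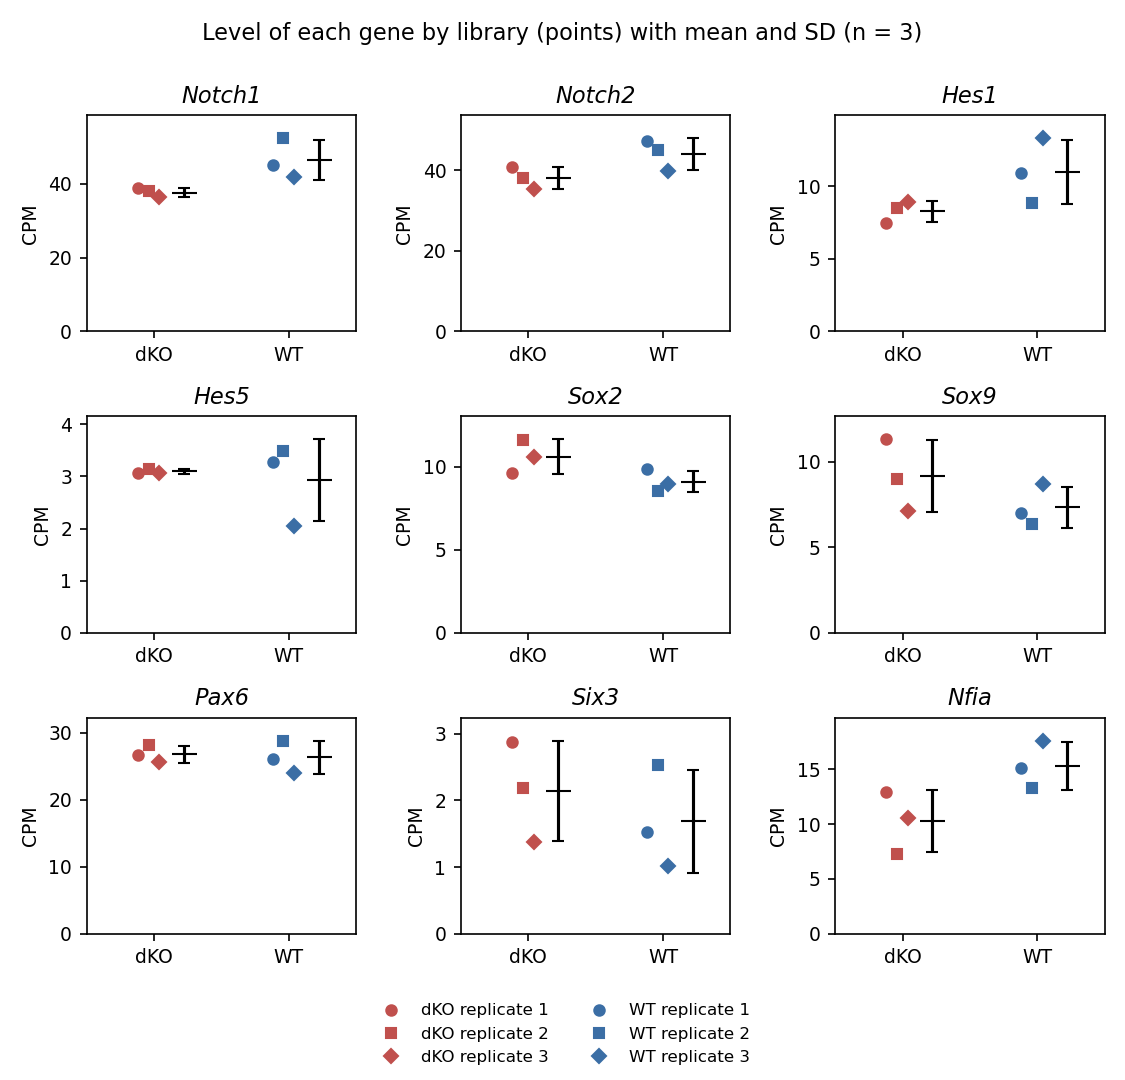
CPM (y axis, from 0) of each gene in the 3 dKO libraries (red, left) and the 3 WT libraries (blue, right), with the mean and SD of each group beside the points. The groups separate in Notch1 and Nfia, with dKO lower, and overlap in the other 7.

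Notch1 (ENSMUSG00000026923, chromosome 2, 26457903 to 26516663 on the minus strand in GRCm38, the build of all gene positions here) encodes a receptor of the pathway. It was at 38.8, 37.9 and 36.3 CPM in dKO replicates 1 to 3 and at 45.0, 52.3 and 41.8 CPM in WT replicates 1 to 3. The groups did not overlap, with 37.6 ± 1.25 CPM in dKO and 46.4 ± 5.35 CPM in WT (SD, n = 3 each). On the log2 scale the difference was -0.30 ± 0.104 (SE), with an edgeR adjusted p of 0.133, so Notch1 did not pass. The 95% interval of the fold change was 0.704 to 0.937.

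Notch2 (ENSMUSG00000027878, chromosome 3, 98013527 to 98150361) encodes another receptor with the same overall plan. Like the genes below, it lies on the plus strand. It was at 40.9, 38.1 and 35.5 CPM in dKO and at 47.4, 45.0 and 39.8 CPM in WT, so dKO replicate 1 lay above WT replicate 3. The log2 fold change was -0.23 ± 0.104 (SE; edgeR adjusted p = 0.336), and the interval of the fold was 0.740 to 0.987. The receptors were the most deeply counted of the 9 genes, with 156 to 556 counts per library for Notch1 and 142 to 543 for Notch2. Differences of this size therefore rest on more reads than those of the target genes.

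Hes1 (ENSMUSG00000022528, chromosome 16, 30064384 to 30067796) is a repressor switched on by Notch that holds back neuronal genes. It was at 7.49, 8.49 and 8.88 CPM in dKO and at 10.9, 8.87 and 13.3 CPM in WT. The groups touched, since dKO replicate 3 and WT replicate 2 were nearly equal. Its log2 fold change was -0.40 ± 0.175 (SE; edgeR adjusted p = 0.303), with a fold between 0.597 and 0.968 at 95%.

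Hes5 (ENSMUSG00000048001, chromosome 4, 154960923 to 154962371), whose promoter is printed above, is the other Hes repressor of the group. It had 16, 13 and 47 counts in dKO and 15, 11 and 8 counts in WT, or 3.07, 3.15 and 3.07 CPM against 3.28, 3.49 and 2.04 CPM. The dKO values lay inside the WT range. The log2 fold change of 0.080 ± 0.316 (SE; edgeR adjusted p = 0.952) had a wide interval, 0.683 to 1.64 as a fold. Changes in either direction within that range were not excluded at this depth. The targets Hes1 and Hes5 thus had estimates of opposite sign, neither of which passed, and the difference between them was not tested.

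Sox2 (ENSMUSG00000074637, chromosome 3, 34650405 to 34652461), a factor that keeps progenitors and Müller glia in their state, was at 9.60, 11.6 and 10.6 CPM in dKO and at 9.83, 8.55 and 8.93 CPM in WT. The groups overlapped, and the log2 fold change was 0.20 ± 0.173 (SE; edgeR adjusted p = 0.710). Sox2 lies inside the long noncoding gene Sox2ot on the same strand, which had 3 to 30 counts per library and shares no exon base with it. Sox9 (ENSMUSG00000000567, chromosome 11, 112782224 to 112787760), a glial factor that also marks Müller cells, was at 11.3, 8.98 and 7.12 CPM in dKO and at 6.99, 6.34 and 8.67 CPM in WT. dKO replicate 3 lay inside the WT range and the other dKO libraries above it, and the log2 fold change was 0.21 ± 0.201 (SE; edgeR adjusted p = 0.746). Intervals of the fold were 0.906 to 1.46 for Sox2 and 0.875 to 1.52 for Sox9. The Sox9 estimate was 0.48 with dKO replicate 3 left out (adjusted p = 0.437) and 0.046 with dKO replicate 1 left out (0.966).

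Pax6 (ENSMUSG00000027168, chromosome 2, 105668900 to 105697364), a master factor of eye formation, gave the steadiest values of the 9. It was at 26.7, 28.1 and 25.6 CPM in dKO and at 26.0, 28.8 and 24.0 CPM in WT. The coefficient of variation over all 6 libraries was 6.66%, under the 9.0% that counting error alone would give at these depths. The log2 fold change was 0.020 ± 0.117 (SE; edgeR adjusted p = 0.967), and the interval of the fold was 0.863 to 1.19. Amacrine and horizontal cells also use Pax6, and their 9 markers summed to 6.27 to 11.4 CPM in dKO and 1.58 to 3.28 CPM in WT, and Onecut1 was at 0 in every library. Most of that sum was Slc6a9, a glycine transporter, at 5.40 ± 1.73 CPM in dKO and 1.19 ± 0.302 CPM in WT (SD, n = 3 each). It passed the test (log2 fold change 1.96, edgeR adjusted p = 0.000316), though not with limma-voom or with scaling by library totals. The part of these cells in the Pax6 level was not tested.

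Six3 (ENSMUSG00000038805, chromosome 17, 85613608 to 85629302), an eye field factor of early retina, had 15, 9 and 21 counts in dKO and 7, 8 and 4 counts in WT, too few to pass the filter. These correspond to 2.88, 2.18 and 1.37 CPM in dKO and 1.53, 2.53 and 1.02 CPM in WT, and the groups overlapped. The gene on the opposite strand, Six3os1, a long noncoding RNA that shares 106 exon bases with Six3, had 66, 67 and 226 counts in dKO and 71, 58 and 55 counts in WT. Six3os1 was thus counted more than Six3 in every library, at 1.28 CPM per kilobase on average against 0.353 for Six3. Its log2 fold change was -0.12 ± 0.142 (SE; edgeR adjusted p = 0.796). The strand setting of the counting is not given in the sources used here, so reads in the shared bases cannot be assigned with certainty.

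Nfia (ENSMUSG00000028565, chromosome 4, 97772734 to 98118874) encodes a nuclear factor I protein that acts in the formation of glia. In Müller glia it is among the factors that keep cells from returning to a progenitor state. It was at 12.9, 7.28 and 10.6 CPM in dKO and at 15.1, 13.3 and 17.6 CPM in WT. Every dKO library lay below every WT library, but dKO replicate 1 and WT replicate 2 were close. The means were 10.3 ± 2.81 CPM in dKO and 15.3 ± 2.16 CPM in WT (SD, n = 3 each). On the log2 scale Nfia fell by 0.55 ± 0.158 (SE), a fold of 0.682 with a 95% interval of 0.548 to 0.848, and the edgeR adjusted p was 0.0419. By p it ranked 159 of 8444, and 162 genes were called, so it stood close to the threshold. In bulk samples, fewer cells of a type and less RNA per cell cannot be told apart.

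The call of Nfia depended on the processing. DESeq2 gave an adjusted p of 0.539 and limma-voom 0.0706, and over 16 alternative fits the adjusted p ranged between 0.0135 and 0.539, with a call in 6. Leaving out a single library ended it for dKO replicate 2 (0.169), dKO replicate 3 (0.134), WT replicate 1 (0.132) and WT replicate 3 (0.266), but not for dKO replicate 1 (0.0135) or WT replicate 2 (0.0209). The antisense gene E130114P18Rik shares 4 exon bases with Nfia and had 14 to 65 counts per library. Larger overlaps of exon bases were those of Notch1 with 0610009E02Rik (1068) and Gm13568 (414), both antisense. Notch2 shares 541 with Gm42820 on the same strand, and Hes5 shares 433 with the antisense Gm20421. These overlapping genes of Notch1, Notch2 and Hes5 had 0 to 4 counts per library. Besides the 106 bases shared with Six3os1, Six3 shares 168 with the antisense Gm28528, which had 0 to 2 counts per library.

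**Figure D3:**
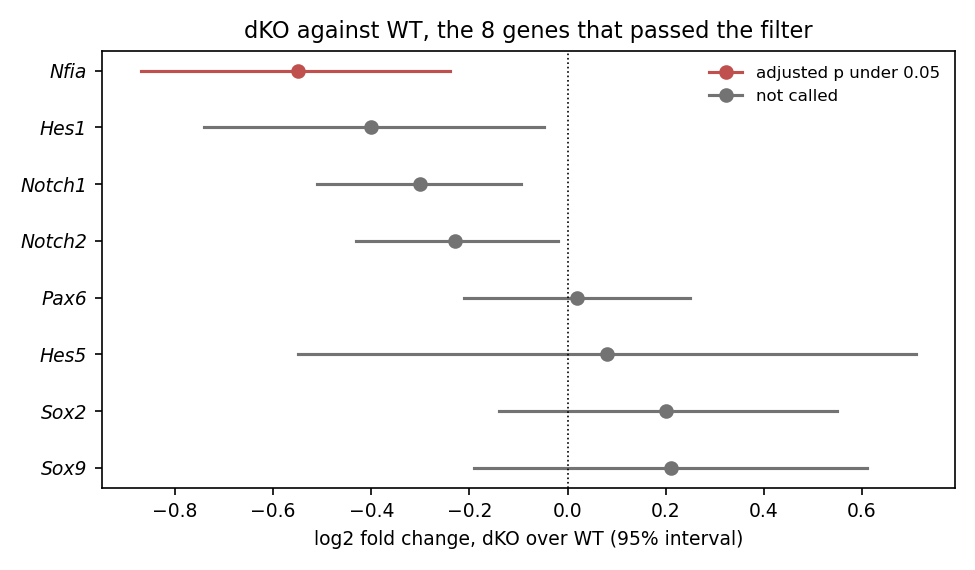
log2 fold change, dKO over WT (x axis), with its 95% interval for the 8 genes that passed the filter; red marks an adjusted p under 0.05. Nfia lies at -0.55, Hes1, Notch1 and Notch2 lie below 0 without passing, and Pax6, Hes5, Sox2 and Sox9 have intervals that include 0.

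**Figure D4:**
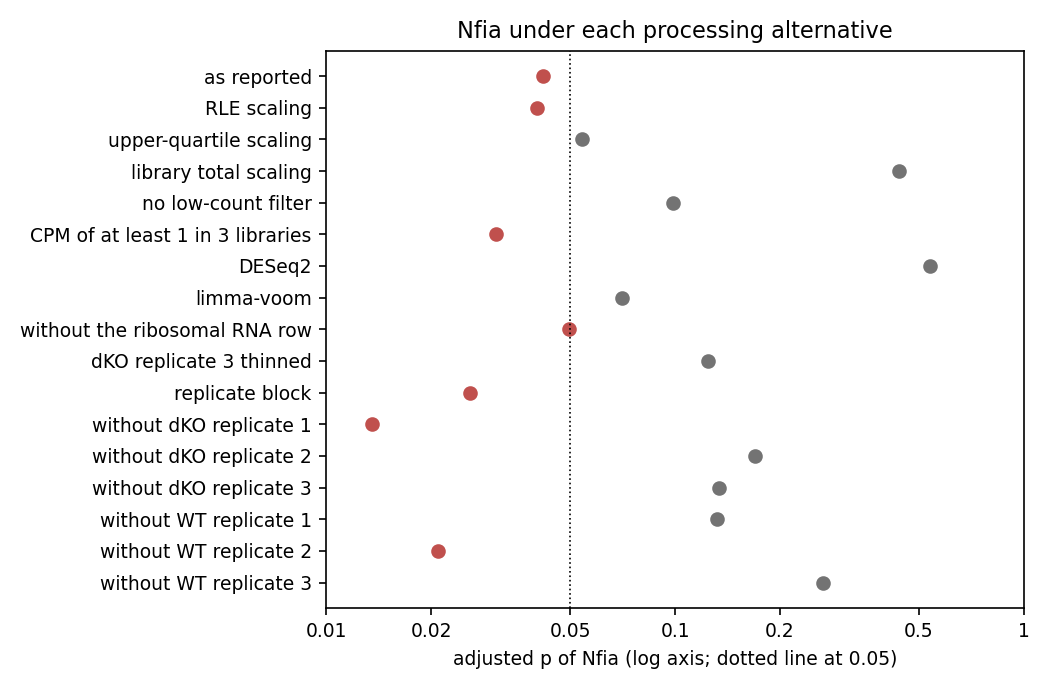
Adjusted p of Nfia (x axis, logarithmic) as reported and under each alternative; red points are under 0.05, the dotted line. The values spread to both sides of the line, between 0.0135 without dKO replicate 1 and 0.539 with DESeq2.

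The rest of the Notch pathway was read from a list of 44 genes that includes Notch1, Notch2, Hes1 and Hes5. Of these, 32 were tested and 0 were called in either direction by edgeR, while 6 had an unadjusted p under 0.05, and DESeq2 and limma-voom also called 0. Over all genes tested, 12.5% had an unadjusted p under 0.05. The median log2 fold change was 0.060, with values between -0.55 and 0.40. Notch1 had the smallest p of the list. The other pathway genes below are named for their role, or because every dKO value lay above or below every WT value. They were chosen with their values known. No ligand passed the filter: Jag1 had 9 to 26 counts in dKO and 5 to 12 in WT, Jag2 8 to 22 and 2 to 4, Dll1 2 to 16 and 2 to 5, and Dll3 and Dll4 at most 3 per library. Jag2 lay higher in every dKO library, at 1.70 ± 0.253 CPM against 0.673 ± 0.185 CPM in WT (SD, n = 3 each), without a test. Psenen, Psen2 and Hey2 also lay higher in every dKO library, a pattern of 8.66% of all genes tested. Dll4, Heyl and Notch1 lay lower in every dKO library, a pattern of 8.31% of all genes tested. Heyl had 0, 0 and 7 counts in dKO and 4, 3 and 2 counts in WT. Dll4 had 0, 0 and 3 counts in dKO and 1, 1 and 1 in WT, so its order rests on single counts. Both shares cover tested genes only, while Jag2, Psenen, Dll4 and Heyl did not pass the filter. Among the other receptors, Notch3, which is known from mural cells of vessels, was at 13.1 ± 2.51 CPM in dKO and 11.9 ± 0.732 CPM in WT (log2 fold change 0.12 ± 0.158, SE), and Notch4, known from endothelium, had 0 to 6 counts per library. Rbpj, the DNA-binding protein of the pathway, was at 11.6 ± 1.15 CPM in dKO and 10.8 ± 0.859 CPM in WT, with a log2 fold change of 0.077 ± 0.162 (SE; adjusted p = 0.902). Lfng, an enzyme that adds sugars to the receptors, had the highest level per length of the list, 6.63 CPM per kilobase, and an edgeR adjusted p of 0.860. Of the targets, Hey2 was at 9.52 ± 1.40 CPM in dKO and 7.19 ± 1.34 CPM in WT with no overlap, but did not pass (0.40 ± 0.194, SE; adjusted p = 0.374). Hey1 and Heyl did not pass the filter.

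**Figure D5:**
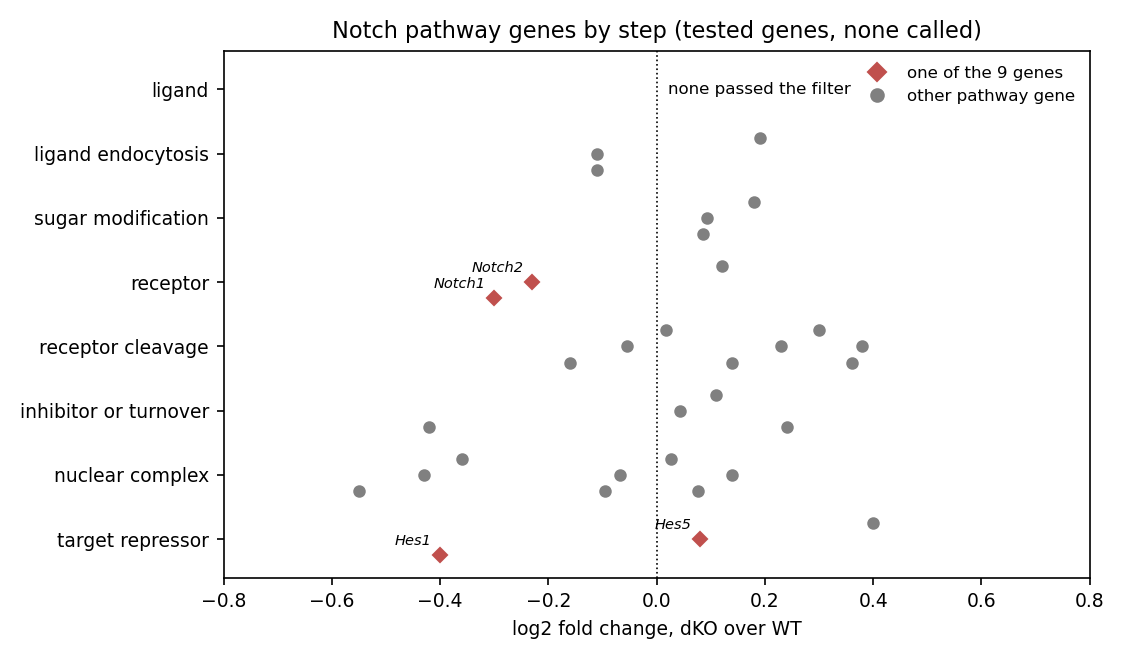
log2 fold change, dKO over WT (x axis), of the 32 tested genes of the Notch pathway list, by step of the pathway (y axis); red diamonds are Notch1, Notch2, Hes1 and Hes5, and points are moved up or down only to keep them apart. No ligand passed the filter, and the values lie between -0.55 and 0.40 with none called.

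The transcription factor list held 27 genes of glia and progenitors, 7 of them among the 9. Of 21 tested, 0 rose and 2 fell, with a median log2 fold change of 0.020. The genes that fell were Nfia and Zbtb20, a zinc finger repressor. Zbtb20 was at 37.2 ± 5.06 CPM in dKO and 48.8 ± 4.71 CPM in WT (SD, n = 3 each; log2 fold change -0.41 ± 0.106, SE; edgeR adjusted p = 0.0160). That call was lost with DESeq2 (log2 fold change -0.41, adjusted p = 0.230), with dKO replicate 3 left out (-0.29, 0.331), with WT replicate 1 (-0.42, 0.0942) or WT replicate 2 (-0.35, 0.140) left out, and with no low-count filter (-0.39, 0.0576). Scaling by library totals, which shifts the median of all genes to 1.21, gave 0.74 (0.396). Other factors of the list are likewise named for their role. The remaining nuclear factor I genes did not pass: Nfib had a log2 fold change of -0.16 ± 0.143, Nfic -0.10 ± 0.258 and Nfix -0.36 ± 0.167 (SE), with edgeR adjusted p of 0.721, 0.927 and 0.335. Of the factors often named with Sox9 in Müller glia, Sox8, Lhx2, Rax and Six6 had log2 fold changes of 0.032, -0.047, 0.16 and 0.053, and all missed the threshold.

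Proneural factors, the genes that Hes repressors hold back, were unevenly counted. Neurod4 had 80 to 302 counts per library in dKO and 76 to 128 in WT. Of 12 listed, Atoh7, Olig2, Foxn4 and Ptf1a had no count in any library. A count of 0 allows up to 3 counts per library for counting error. Of the 3 tested, edgeR called 0 (1 with an unadjusted p under 0.05). Neurod4, a factor of bipolar cell development, was at 19.3 ± 0.569 CPM in dKO and 25.3 ± 2.28 CPM in WT (-0.40 ± 0.121, SE; edgeR adjusted p = 0.0650), and Sox4 had a log2 fold change of 0.27 ± 0.321 (SE; 0.798).

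Markers of other cells moved between the groups in both directions beside these values. Bipolar markers summed to 118 to 123 CPM in dKO and 159 to 171 CPM in WT, with 3 of 7 tested lower (Prkca, Trpm1 and Grm6), and rod markers to 304 to 378 CPM in dKO and 158 to 183 CPM in WT, with 5 of 6 higher. Müller glia markers summed to 3700 to 3900 CPM in dKO and 3600 to 3710 CPM in WT, and of 12 tested edgeR and DESeq2 called 0 (1 with an unadjusted p under 0.05 in edgeR). limma-voom called 2 higher, and edgeR called 1 lower with dKO replicate 3 thinned to the depth of the others or with WT replicate 3 left out. The smallest edgeR p was that of the potassium channel Kcnj10 (-0.39 ± 0.114, SE; edgeR adjusted p = 0.0554). Astrocyte markers summed to 60.1 to 66.2 CPM in dKO and 41.8 to 49.2 CPM in WT, with 1 of 3 tested higher. That was Gfap, a filament of reactive glia (log2 fold change 0.69 ± 0.118 SE, edgeR adjusted p = 4.04e-05). Aldh1l1 (0.22, edgeR adjusted p = 0.493) and Pdgfra (-0.48, edgeR adjusted p = 0.506) did not pass. Pax2, the factor that defines retinal astrocytes, had 0 or 1 count per library. Endothelial markers, whose cells also use Notch1 and Hes1, summed to 222 to 233 CPM in dKO and 219 to 269 CPM in WT, with 0 of 3 tested called by edgeR. Kdr (153 ± 2.22 CPM in dKO and 163 ± 17.3 CPM in WT) and Flt1 (68.7 ± 4.36 and 73.9 ± 7.84 CPM; SD, n = 3 each) made up most of that sum. The thinly counted Cldn5 (0.574 ± 0.433 CPM in dKO and 2.10 ± 0.454 CPM in WT) and Cdh5 (0.227 ± 0.244 and 1.24 ± 0.698 CPM) lay lower in every dKO library, and Tek was at 0.319 ± 0.178 CPM in dKO and 1.23 ± 0.997 CPM in WT, without a test. Mural markers summed to 152 to 157 CPM in dKO and 141 to 147 CPM in WT, with 0 of 5 called by edgeR. Microglia markers summed to 588 to 593 CPM in dKO and 544 to 592 CPM in WT with 1 of 7 higher, T and NK markers to 20.9 to 23.8 and 20.4 to 23.8 CPM with 1 of 3 lower, and B and plasma cell markers to 48.8 to 57.3 and 55.1 to 63.0 CPM with 0 of 1. The T and NK gene was Gzma (log2 fold change -1.01, edgeR adjusted p = 0.0369). Its call was lost with the replicate block (0.0651), DESeq2 (0.401), no low-count filter (0.0555), thinning of dKO replicate 3 (0.102) and library totals, and with dKO replicate 2 (0.10), dKO replicate 3 (0.168), WT replicate 1 (0.177) or WT replicate 2 (0.139) left out. RGC markers summed to 26.9 to 27.8 CPM in dKO and 22.9 to 24.7 CPM in WT, with 1 of 3 higher, and the single amacrine marker tested was higher. The RGC gene called was Nefl, at a mean of 7.16 CPM in dKO and 2.24 CPM in WT. Its log2 fold change was 1.63 (edgeR adjusted p = 3.96e-05). Isl1 lay lower in every dKO library (means 4.24 and 7.05 CPM) but did not pass, and Thy1 was at 10.3 and 10.7 CPM. The thinly counted Pou4f1 and Slc17a6 lay higher in every dKO library, without a test. The RGC sum therefore does not describe a shared change of its genes. The part of any of these cells in the values of the 9 genes was not tested.

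How the genes varied among libraries also differed. Over all 6 libraries the coefficient of variation was 27.9% for Nfia, where counting error alone gives 13.0%, and 14.1% for Notch1, where it gives 7.15%. Such values pool both groups, so any difference between dKO and WT is part of them. For Hes5 (16.7% against 26.7%), Sox2 (11.4% against 14.8%) and Pax6 the variation was under the counting error, and for Sox9 (22.2% against 16.2%), Hes1 (21.7% against 14.9%), Six3 (37.8% against 33.5%) and Notch2 (10.8% against 7.23%) it was above. The profiles most like each gene over the 6 libraries were looked up among 6626 genes, by the root-mean-square difference of log2 CPM after subtracting each gene's mean. The nearest was Rtn3 for Pax6 (0.00975), Trim28 for Sox2 (0.0365), Pdgfrb for Hes5 (0.0398), Sorl1 for Notch2 (0.0424), Srrm2 for Notch1 (0.0493), Nfasc for Sox9 (0.0653), Hmgb1 for Hes1 (0.0729) and Ostf1 for Nfia (0.0989). Next came Hsbp1 for Pax6 (0.0317), Htt for Notch2 (0.0455), Gars for Sox2 (0.0506), Kmt2c for Notch1 (0.0569), Rabgap1 for Hes5 (0.0608), H2afz for Hes1 (0.0777), Plagl1 for Sox9 (0.0846) and Noc2l for Nfia (0.129). With 6 libraries and so many candidates, close profiles are easily found, and these names are a description only.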

How the data were processed

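Total RNA of sorted cells was made into stranded libraries without selection for poly(A), per the labels' protocols. The authors deposited raw counts per Ensembl gene, which are whole numbers with no normalization. The tools and build in the submitters' processing notes are GRCm38, STAR 2.7.0d and DESeq2 1.22.2. How reads were counted, on which strand and with which annotation, is not given in the sources used here. Positions and exon lengths come from GENCODE M21, where 55480 of 55573 IDs were found.

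Genes were kept by filterByExpr (minimum count 10, minimum total 15), scaled by TMM with the ribosomal RNA row included and tested with edgeR 4.0.16 (R 4.3.3), group as the only term, all 6 libraries, called at an adjusted p under 0.05. The common biological coefficient of variation was 0.0820. The SE of a log2 fold change is its size over the square root of F. Alternatives used DESeq2 1.42.0, limma 3.58.1 (voom) and other scalings, filters and sets of libraries. The 9 genes and all lists were chosen with earlier results of these data known. Within groups, libraries differed by more than counting noise (chi-square per degree of freedom 1.12 to 1.44), so each was counted as 1 replicate. The rule for named genes took all 9 genes, up to 4 called genes of each list, or else the 2 with the smallest p, the 2 most abundant of each marker list, overlapping genes, and the 2 profiles most like each gene. Of the marker lists, most genes are given only as sums and counts. A few genes picked by this rule are not reported here. The steps were tested on simulated data. Counting errors and floors cover counting error only. Figures were drawn with matplotlib 3.10.9.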

Additional observations from a re-analysis of the deposited data

How the results depend on the processing

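Of the 9 genes, 0 were called higher under every alternative run and only Nfia was ever called lower. The count of 1 became 0 with upper-quartile scaling, library-total scaling, no low-count filter, DESeq2, limma-voom and dKO replicate 3 thinned to the depth of the others, and was 0 or 1 with 1 library left out. Library-total scaling moved the median of all genes to 1.21, so Nfia stood at 0.68 there, which is -0.54 relative to that median (Notch1 0.89 and -0.32, Notch2 0.95 and -0.27, Hes1 0.85 and -0.36); Zbtb20 stood at 0.74, Trpm1 at 0.62, Grm6 at 0.55, Prkca at 0.44 and Gzma at 0.17 before that shift. Over the other alternatives, the log2 fold change was -0.66 to -0.44 for Nfia, -0.37 to -0.22 for Notch1, -0.29 to -0.15 for Notch2, -0.51 to -0.25 for Hes1, 0.16 to 0.26 for Sox2 and 0.046 to 0.48 for Sox9. The sign changed for Hes5 (-0.12 to 0.19) and Pax6 (-0.037 to 0.13). Six3 gave 0.23 without the filter and between -0.037 and 0.55 in the other fits that kept it. Over all genes, calls were 62 higher and 100 lower as reported, 3 and 0 with library totals, 26 and 26 with DESeq2, 108 and 149 at an adjusted p under 0.1, and 29 to 71 higher and 61 to 115 lower with 1 library left out. Of the transcription factor list, 2 fell as reported, 1 with upper-quartile scaling, limma-voom or thinning, 0 with library totals, no filter or DESeq2, and 0 to 2 with 1 library left out. The Notch pathway list had 0 calls in every alternative. The cause of these differences was not tested.

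The replicate numbers are shared by both groups, but the labels give no pairing. Deviations of same-numbered libraries correlated at 0.0262, 0.0129 and 0.0287 across genes; each library correlated best with its own number, a hint from the data and not from the design. With the replicate block, 58 genes were higher and 100 lower. Nfia had an adjusted p of 0.0258, and of the genes named here only Gzma (0.0651) lost its call. Depth limits Six3 and Hes5 most, with 4 to 21 and 8 to 47 counts per library.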
